A study of Mus musculus with 8 samples.

Results

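Prostaglandins are lipid signals made from arachidonic acid. Their genes were followed here in mouse osteoblast progenitors treated with LAMZ. The members were 10 genes named by symbol: the cyclooxygenases Ptgs1 and Ptgs2, the terminal synthases Ptges, Ptges2, Ptges3, Ptgis and Ptgds, the breakdown enzyme Hpgd, and the prostaglandin E2 receptors Ptger2 and Ptger4. All 10 of 10 were found among the 51822 gene symbols used. LAMZ (locamidazole) is an aminoindazole compound with anabolic action on muscle and bone, and RNA sequencing was used to look for its mode of action. The cells were kept in osteogenic medium with ascorbic acid, dexamethasone and β-glycerophosphate, which all groups shared. They received the vehicle DMSO (control) or 1 μmol·L−1 LAMZ. RNA was taken after 7 or 14 days of culture, which gives 4 groups of 2 libraries. The sample labels name MC3T3-E1, an osteoblastic cell line, whereas the design text names calvarial cells. The methods take osteoblast progenitors from the calvaria of neonatal mice, and the sample labels give no genotype or strain.

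Values are RPKM, the reads of a gene scaled to its length and to the mapped reads of its library, as deposited. The recovered depth was 3463538 to 5832101 mapped reads per library. Of 11 osteoblast markers, all 11 were above 0 in every library, with summed levels of 7207 to 18915 RPKM. The small RNA Rn7s1 held 18.1% to 33.7% of the summed RPKM of a library. LAMZ raised 544 and lowered 1063 of 12514 tested genes at day 7, against 312 and 3280 after rescaling to the same sum and 857 and 745 after centring on the median. At day 14 these counts were 871 and 2007, against 473 and 5323 and against 1608 and 1249. The median change of all tested genes was −0.08 at day 7 and −0.15 at day 14 on the log2 scale, and it moved to −0.31 and −0.43 with the same-sum rescaling. No label says that the 2 libraries of a group came from separate cultures, so the p-values measure only the spread between these libraries, which may be technical. An exact permutation test of 2 against 2 libraries cannot go below p = 0.333. The tests are therefore those of limma, fitted over all genes, with Benjamini-Hochberg adjustment over the 12514 tested genes. Fold changes of limma are on log2(RPKM + 1), which understates the change of genes near or below 1 RPKM. Ratios of mean RPKM are given beside them. LAMZ and control libraries did not overlap for 56.3% of all tested genes at day 7 and for 64.3% at day 14. A lack of overlap between 2 groups is therefore common here and is given as a description.

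Phospholipase A2 enzymes free arachidonic acid from membranes, and the cyclooxygenases turn it into the common precursor prostaglandin H2. Ptgs1 is regarded as the constitutive and Ptgs2 as the inducible enzyme. Terminal synthases then make prostaglandin E2, prostacyclin or prostaglandin D2, which act through G-protein-coupled receptors, and 15-hydroxyprostaglandin dehydrogenase (Hpgd) inactivates them. In bone, prostaglandin E2 made by osteoblasts after loading or inflammation affects both bone formation and bone resorption.

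Start site sequences are shown for both cyclooxygenases, which moved in opposite directions, and for the breakdown enzyme and the receptor that also moved. A RefSeq window was found for 9 of the 10 members, and Ptgis had none. Each window holds 250 bases before and 30 bases from the RefSeq start on GRCm38.p6, read 5′ to 3′ on the strand of the gene. Capitals mark matches on either strand to 6 motifs: the TATA box TATAAA, the GC box GGGCGG, the cAMP response element core CGTCA, the E box CACGTG, the CCAAT enhancer binding protein site TTGCNNAA and the RUNX site TGTGGT. They lie at chr1:150099781-150100060 (plus strand) for Ptgs2, chr2:36230176-36230455 (plus) for Ptgs1, chr15:5244158-5244437 (minus) for Ptger4 and chr8:56294302-56294581 (plus) for Hpgd.
Ptgs2: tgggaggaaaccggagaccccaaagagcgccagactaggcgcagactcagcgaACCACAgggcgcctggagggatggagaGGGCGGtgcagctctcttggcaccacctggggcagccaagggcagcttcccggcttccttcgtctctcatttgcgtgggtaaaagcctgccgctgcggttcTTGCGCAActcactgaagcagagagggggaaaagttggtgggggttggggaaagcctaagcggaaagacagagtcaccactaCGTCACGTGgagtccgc
Ptgs1: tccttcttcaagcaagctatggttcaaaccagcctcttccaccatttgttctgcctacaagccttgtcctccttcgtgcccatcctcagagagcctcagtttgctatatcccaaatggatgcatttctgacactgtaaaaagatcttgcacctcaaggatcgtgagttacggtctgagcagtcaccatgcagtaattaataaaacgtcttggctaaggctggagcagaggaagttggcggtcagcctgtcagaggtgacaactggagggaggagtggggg
Ptger4: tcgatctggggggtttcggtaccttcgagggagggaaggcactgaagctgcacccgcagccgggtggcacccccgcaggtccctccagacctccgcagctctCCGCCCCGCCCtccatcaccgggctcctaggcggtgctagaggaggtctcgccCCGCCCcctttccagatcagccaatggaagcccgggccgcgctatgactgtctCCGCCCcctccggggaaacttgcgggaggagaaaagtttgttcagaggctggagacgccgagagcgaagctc
Hpgd: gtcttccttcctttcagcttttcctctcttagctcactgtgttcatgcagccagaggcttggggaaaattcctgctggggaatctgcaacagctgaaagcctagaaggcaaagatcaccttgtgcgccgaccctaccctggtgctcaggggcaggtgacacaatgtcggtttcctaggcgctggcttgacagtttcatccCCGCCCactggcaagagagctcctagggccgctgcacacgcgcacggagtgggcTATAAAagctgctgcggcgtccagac

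The Ptgs2 window held 5 of the 6 motifs. The RUNX site began 197 bases, the GC box 170 bases and the CCAAT enhancer binding protein site 69 bases before the annotated start. The cAMP response element core began at base 14 from the start, which is base 1, and overlapped the E box at base 17. In the Ptgs1 window no letters of the 6 motifs were found. The Ptger4 window held 4 GC boxes, at 148, 143, 95 and 42 bases before the start, the first 2 of which overlap. Hpgd had 1 GC box 50 bases before the start and a TATA box at base 5, both counted from the RefSeq start. The annotations differ there, since the whole Hpgd window ends before the GENCODE start of the gene at 56294585. Among 32851 windows of the same length, the TATA box was found in 13.1%, the GC box in 34.7%, the cAMP response element core in 19.9%, the E box in 6.79%, the CCAAT enhancer binding protein site in 10.4% and the RUNX site in 15.6%. A match is a match of letters only, and binding was not measured.

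Ptgis was the most abundant member in all 8 libraries and Ptger2 the least abundant by group mean. RPKM is scaled to length, so levels may be set side by side across genes. In day 7 control cells the group means ran from Ptgis (38.4 RPKM) through Ptges3 (27.8), Hpgd (5.76), Ptges (4.29), Ptgs1 (3.35), Ptges2 (2.16), Ptger4 (1.51), Ptgds (1.38) and Ptgs2 (0.542) to Ptger2 (0.0392). In that order the libraries of Hpgd and Ptges overlapped, as did those of Ptger4 and Ptgds and those of Ptgds and Ptgs2. The place of Ptgs2 moved from 9 of 10 in day 7 control to 4 of 10 in day 7 LAMZ, where its libraries overlapped those of Ptges. It was also at place 9 in day 14 control and at place 4 in day 14 LAMZ, there with no overlap with either neighbour. Ptgs1 went the other way, from place 5 to place 8 at day 7 and from place 5 to place 7 at day 14. Hpgd passed Ptges3 only in day 14 LAMZ cells, where the 10 genes followed each other with no overlap between neighbours.

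**Figure D1:**
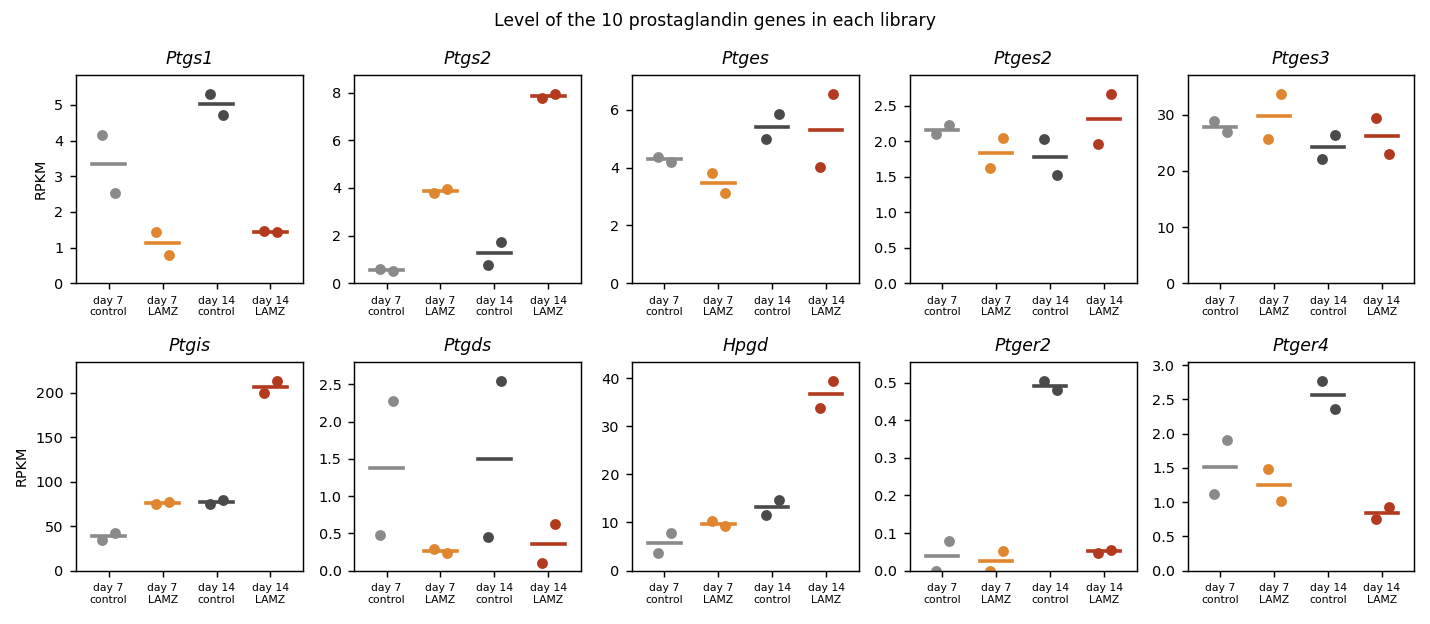
RPKM (vertical axis, linear, from 0) of each of the 10 genes in the 8 libraries, by group (horizontal axis); points are single libraries and lines the means of 2. Ptgs2, Ptgis and Hpgd are highest in day 14 LAMZ cells (means 7.87, 207 and 36.6 RPKM), whereas Ptgs1, Ptger4 and Ptger2 are highest in day 14 control cells (5.02, 2.57 and 0.493 RPKM).

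LAMZ changed 3 of the 9 tested members at day 7, 2 of them upward (Ptgs2, Ptgis) and 1 downward (Ptgs1), beside 12.8% of all tested genes. At day 14 it changed 5 of 9, with 3 upward (Ptgs2, Ptgis, Hpgd) and 2 downward (Ptgs1, Ptger4), beside 23.0% of all tested genes. The median change of the 9 members was −0.15 at day 7 and 0.10 at day 14, beside −0.08 and −0.15 over all tested genes. Ptgs2 met the filter on low values through its LAMZ libraries, where it is high, so its part in these counts is a description. It also passed on both days with no filter. The tenth gene, Ptger2, did not reach 1 RPKM in any library and was not tested.

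The 2 cyclooxygenase transcripts moved in opposite directions with LAMZ on both days. Ptgs2 encodes the inducible cyclooxygenase (COX-2). It lies on chromosome 1 (150100031 to 150108227, plus strand, GRCm38). Ptgs2 was at 0.579 and 0.504 RPKM in day 7 control libraries and at 3.79 and 3.94 RPKM in day 7 LAMZ libraries. By day 14 it was at 0.773 and 1.74 RPKM in control and at 7.79 and 7.96 RPKM in LAMZ libraries. Every LAMZ library was above every control library of either day, and the day 14 control libraries were the least alike. The group means were 0.542 ± 0.0529 (SD, n = 2) against 3.86 ± 0.107 RPKM at day 7, a ratio of 7.13. At day 14 they were 1.26 ± 0.683 against 7.87 ± 0.123 RPKM, a ratio of 6.27. Ptgs2 rose by 1.66 (SE 0.20) on the log2(RPKM + 1) scale at day 7 (limma, adjusted p = 0.00199) and by 2.01 (SE 0.20) at day 14 (limma, adjusted p = 0.000401). It was tested through its LAMZ libraries, since only 1 control library reached 1 RPKM, and it also passed with no filter on low values (limma, adjusted p = 0.0115 and 0.00329). Behind these values were 18 and 168 reads in all at day 7 and 55 and 386 reads at day 14. The ratio of the read rates was 7.13 (exact 95% interval 4.37 to 12.3) at day 7 and 6.48 (4.87 to 8.76) at day 14. PCR copies of 1 molecule count as several reads, so these intervals hold counting error alone.

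Ptgs1 encodes the constitutive cyclooxygenase (COX-1) and lies on chromosome 2 (36230426 to 36252272, plus strand). At day 7 it was at 4.17 and 2.53 RPKM in control and at 1.45 and 0.791 RPKM in LAMZ libraries. At day 14 the control libraries were at 5.32 and 4.73 RPKM and the LAMZ libraries at 1.46 and 1.42 RPKM. All 4 LAMZ libraries were below all 4 control libraries. Control means were 2.99 times the LAMZ means at day 7 (3.35 ± 1.16 against 1.12 ± 0.465 RPKM) and 3.49 times at day 14 (5.02 ± 0.421 against 1.44 ± 0.0233 RPKM). Ptgs1 fell by 1.03 (SE 0.22) at day 7 (limma, adjusted p = 0.0209) and by 1.30 (SE 0.22) at day 14 (limma, adjusted p = 0.00467) on the log2 scale. The day 7 call was lost without control library 1 (adjusted p = 0.0917 by limma), without LAMZ library 2 (0.120), in a fit of the day 7 groups alone (0.105) and with no filter on low values (0.0784). Exons of Gm43621 on the opposite strand overlap Ptgs1 by 148 bases, and whether reads were counted by strand is not given in the sources used here.

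With the opposite changes, the share of Ptgs2 in the summed RPKM of both cyclooxygenases was 12.2% and 16.6% in day 7 control and 72.3% and 83.3% in day 7 LAMZ libraries. In the day 14 libraries it was 12.7% and 26.9% in control and 84.2% and 84.8% in LAMZ libraries. Ptgs1 was thus the larger of both in every control library and Ptgs2 in every LAMZ library. The sum itself was 4.74 and 3.03 RPKM in day 7 control and 5.24 and 4.73 RPKM in day 7 LAMZ libraries, which overlapped. At day 14 the sum was 6.09 and 6.47 RPKM in control and 9.24 and 9.38 RPKM in LAMZ libraries, with no overlap. No test was run on the share or the sum.

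**Figure D2:**
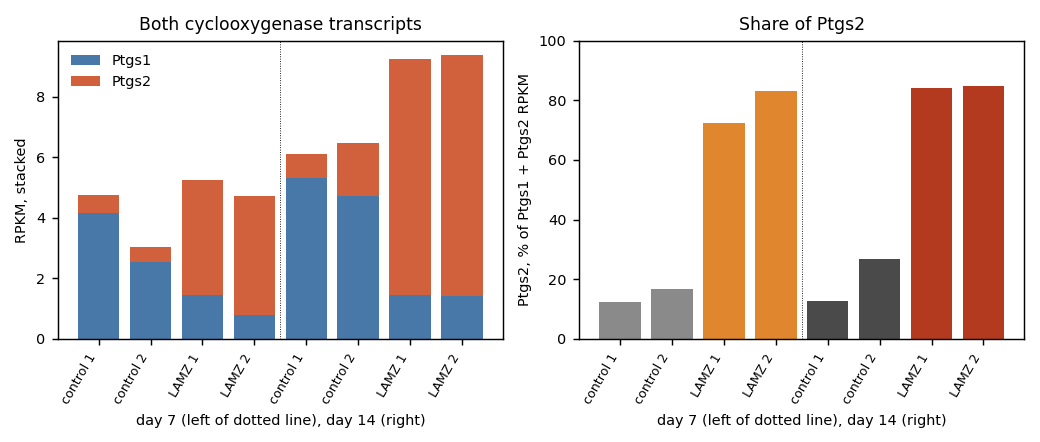
Left, RPKM of Ptgs1 and Ptgs2 stacked in each of the 8 libraries; right, Ptgs2 as % of the summed RPKM of both, with day 7 left and day 14 right of the dotted line. The share of Ptgs2 is 12.2% to 26.9% in the 4 control libraries and 72.3% to 84.8% in the 4 LAMZ libraries.

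Among the terminal synthases, Ptgis moved with LAMZ, and the 3 prostaglandin E synthases and Ptgds did not pass the test. Ptgis encodes prostacyclin synthase and lies on chromosome 2 (167191805 to 167240604, minus strand). Its level was 34.8 and 42.1 RPKM in day 7 control and 74.4 and 77.2 RPKM in day 7 LAMZ libraries. By day 14 it had reached 74.4 and 79.4 RPKM in control and 199.9 and 213 RPKM in LAMZ libraries. The day 7 LAMZ and day 14 control libraries overlapped, and those of each day did not. The LAMZ mean was 1.97 times the control mean at day 7 (75.8 ± 1.93 against 38.4 ± 5.13 RPKM) and 2.68 times at day 14 (207 ± 9.44 against 76.9 ± 3.55 RPKM). Ptgis rose by 0.97 (SE 0.13) at day 7 (limma, adjusted p = 0.00272) and by 1.41 (SE 0.13) at day 14 (limma, adjusted p = 0.000254) on the log2 scale. It is the member with the most reads, 337 to 2992 per library, and by RPKM it ranked 919 and 695 among all symbols in day 7 control and 182 and 172 in day 14 LAMZ libraries. Exons of 1110018N20Rik on the opposite strand overlap it by 156 bases.

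The prostaglandin E synthases showed no call in any comparison. Ptges encodes the microsomal enzyme that is commonly coupled to COX-2 (chromosome 2, 30889471 to 30929863, minus strand). Ptges was at 4.39 and 4.19 RPKM in day 7 control, 3.82 and 3.12 RPKM in day 7 LAMZ, 4.97 and 5.85 RPKM in day 14 control and 4.01 and 6.57 RPKM in day 14 LAMZ libraries. Its log2 change with LAMZ was −0.25 (95% interval −0.70 to 0.21) at day 7 (limma, adjusted p = 0.473) and −0.06 (−0.51 to 0.40) at day 14 (limma, adjusted p = 0.869). The day 14 LAMZ libraries lay on both sides of the control libraries. Ptges2 encodes a membrane-associated synthase (chromosome 2, 32395896 to 32405772, plus strand) and was between 1.53 and 2.67 RPKM in the 8 libraries. Its log2 change was −0.16 (−0.56 to 0.24) at day 7 and 0.25 (−0.14 to 0.65) at day 14 (limma, adjusted p = 0.595 and 0.327). Ptges3 encodes the cytosolic synthase, also known as the HSP90 co-chaperone p23 (chromosome 10, 128058954 to 128077272, plus strand), and was between 22.1 and 33.8 RPKM. Its log2 change was 0.08 (−0.32 to 0.49) at day 7 and 0.10 (−0.30 to 0.51) at day 14 (limma, adjusted p = 0.813 and 0.705). For these 3 genes all 6 intervals include 0, and none reaches beyond −0.70 or 0.65 on the log2 scale. Under the same-sum rescaling the sign of Ptges3 turned at both days, as did that of Ptges at day 14 under median centring.

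Ptgds encodes the lipocalin-type prostaglandin D synthase (chromosome 2, 25466709 to 25470046, minus strand). It had 0.482 and 2.28 RPKM in day 7 control and 0.284 and 0.233 RPKM in day 7 LAMZ libraries. The day 14 libraries had 0.452 and 2.55 RPKM in control and 0.104 and 0.621 RPKM in LAMZ libraries. The 2 libraries numbered 2 of the control groups were far above those numbered 1, with 13 and 19 reads against 3 and 4, and the LAMZ libraries had 1 to 5 reads. At this depth no difference was detectable, with a log2 change of −0.81 (−1.95 to 0.33) at day 7 and −0.76 (−1.90 to 0.38) at day 14 (limma, adjusted p = 0.333 and 0.305). Ptgds passed the filter on low values only through those 2 control libraries.

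Together, Ptgis made up 49.3% and 54.2% of the summed RPKM of the 5 terminal synthases in day 7 control and 70.3% and 66.3% in day 7 LAMZ libraries. In day 14 control libraries it made up 71.6% and 68.7%, and in day 14 LAMZ libraries 84.9% and 86.6%. The share was higher in LAMZ than in control libraries on each day. It was highest in the group where Ptgis itself was highest.

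Hpgd, the enzyme that inactivates prostaglandins, was higher with LAMZ at day 14 (chromosome 8, 56294585 to 56321043, plus strand). Its level was 3.62 and 7.89 RPKM in day 7 control and 10.3 and 9.24 RPKM in day 7 LAMZ libraries. In day 14 libraries it was 11.5 and 14.7 RPKM in control and 33.8 and 39.4 RPKM in LAMZ. The groups did not overlap on either day, as was the case for 56.3% of all tested genes at day 7 and 64.3% at day 14. The LAMZ mean was 1.70 times the control mean at day 7 (9.77 ± 0.758 against 5.76 ± 3.02 RPKM), where the log2 change of 0.75 (SE 0.28) did not pass the test (limma, adjusted p = 0.125). At day 14 the ratio was 2.79 (36.6 ± 3.96 against 13.1 ± 2.27 RPKM), and Hpgd rose by 1.42 (SE 0.28) on the log2 scale (limma, adjusted p = 0.00896). The day 14 call was lost without day 14 control library 1 (adjusted p = 0.0616 by limma) or day 14 LAMZ library 2 (0.0631). Without day 7 control library 2, the change at day 7 passed the test (0.0112).

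Both prostaglandin E2 receptors among the members, which couple to cAMP production, were highest in day 14 control cells. Ptger4 encodes EP4 (chromosome 15, 5206661 to 5244187, minus strand). It was at 1.12 and 1.91 RPKM in day 7 control and at 1.48 and 1.01 RPKM in day 7 LAMZ libraries, which overlapped. By day 14 it was at 2.77 and 2.36 RPKM in control and at 0.748 and 0.924 RPKM in LAMZ libraries, which did not overlap. The day 14 control mean was 3.07 times the LAMZ mean (2.57 ± 0.290 against 0.836 ± 0.125 RPKM), and Ptger4 fell by 0.96 (SE 0.21) on the log2 scale (limma, adjusted p = 0.0134). At day 7 its change was −0.15 (95% interval −0.63 to 0.33) (limma, adjusted p = 0.682). The day 14 call was lost when any 1 of the 4 day 14 libraries was left out, with an adjusted p by limma of 0.0762 and 0.0502 without control libraries 1 and 2 and of 0.0757 and 0.0541 without LAMZ libraries 1 and 2. Exons of Ttc33 and Gm15937 on the opposite strand overlap Ptger4 by 82 and 1015 bases.

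Ptger2 encodes EP2 (chromosome 14, 44988195 to 45003820, plus strand). It was listed at 0 and 0.0784 RPKM in day 7 control and at 0 and 0.0521 RPKM in day 7 LAMZ libraries, which is 0 or 1 read each if its lowest value is taken as 1 read. At day 14 it was at 0.505 and 0.480 RPKM in control, 10 and 8 reads, and at 0.0465 and 0.0556 RPKM in LAMZ libraries, 1 read each. The read rate in day 14 LAMZ cells was 0.103 of that in control cells (exact 95% interval 0.0115 to 0.428, counting error only). No more can be said at this depth, and at day 7 both groups were at or under the floor of 3 reads. Exons of Gm49364 and Gm17173 on the opposite strand overlap Ptger2 by 144 and 246 bases.

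**Figure D3:**
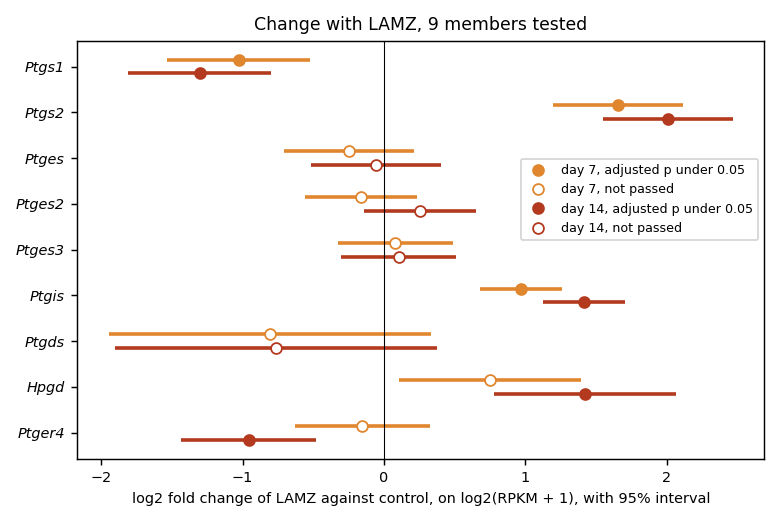
Change with LAMZ on log2(RPKM + 1) (horizontal axis) with 95% intervals from limma for the 9 tested genes (vertical axis) at day 7 (orange) and day 14 (red); filled points passed an adjusted p of 0.05. Ptgs2 and Ptgis are to the right of 0 on both days (1.66 and 2.01, 0.97 and 1.41) and Ptgs1 to the left (−1.03 and −1.30), while the 3 prostaglandin E synthases and Ptgds span 0.

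Over time in culture, 1 of the 9 members changed in control cells, beside 4.86% of all tested genes. Ptgis rose by 0.99 (SE 0.13) from day 7 to day 14 on the log2 scale (limma, adjusted p = 0.00882), with a ratio of means of 2.00. The call was lost in a fit of the control groups alone (0.118) and without day 14 control library 1 (0.0568) or 2 (0.0525). Hpgd had a log2 change of 1.13 (SE 0.28) that did not pass (limma, adjusted p = 0.0621). Without day 7 control library 2 it passed (0.0136), and it also passed with a minimum of 1 RPKM in all 8 libraries (0.0307), with the same-sum rescaling (0.0302) and on recovered reads (0.0111).

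In LAMZ cells, 3 of the 9 members rose from day 7 to day 14, beside 14.4% of all tested genes. These were Hpgd, by 1.80 (SE 0.28), Ptgis, by 1.43 (SE 0.13), and Ptgs2, by 0.87 (SE 0.20) on the log2 scale (limma, adjusted p = 0.00628, 0.000745 and 0.0257). The calls of Hpgd were lost without day 7 LAMZ library 2 (0.0563) or day 14 LAMZ library 2 (0.0540). Those of Ptgs2 were lost without any 1 of the 4 LAMZ libraries (0.105 to 0.136), with a pseudocount of 0.1 (0.0765) and with no filter (0.0896). The comparisons over time and with LAMZ share libraries, so they are not independent of each other.

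Whether the change with LAMZ differed between day 7 and day 14 was tested as an interaction. None of the 9 members passed (0 of 9 by limma and 0 of 9 by limma voom on recovered reads), beside 0.623% of all tested genes, and 2 of 9 had an unadjusted p under 0.05. Those were Ptger4, with a difference of −0.81 (SE 0.29) (limma, unadjusted p = 0.0252, adjusted p = 0.234), and Ptgis, with 0.45 (SE 0.18) (limma, unadjusted p = 0.0370, adjusted p = 0.274). The call of Ptger4 and Hpgd at day 14 alone is therefore not shown to differ from day 7.

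Other genes of the pathway were taken from lists of symbols. The counts below stand beside 12.8% of all tested genes called at day 7 and 23.0% at day 14. In LAMZ cells 8 of these genes (Hpgds, Ptger1, Ptger3, Ptgir, Slco3a1, Alox5ap, Ltc4s and Pla2g5) did not reach 1 RPKM in any library. They were tested only through control libraries that reached it, so the counts and medians of their lists are descriptions and support nothing. Slco3a1, Ltc4s and Pla2g5 are named here for that reason, after their values were seen. At the step of arachidonic acid release, 1 of 5 tested phospholipases A2 passed on either day. Pla2g4a, the cytosolic phospholipase A2, was at 0.664 and 0.813 RPKM in day 7 control and 2.53 and 2.25 RPKM in day 7 LAMZ libraries. At day 14 it was at 1.31 and 1.59 RPKM in control and 3.03 and 3.30 RPKM in LAMZ libraries. It rose by 0.96 (SE 0.15) at day 7 and 0.77 (SE 0.15) at day 14 on the log2 scale (limma, adjusted p = 0.00554 and 0.00840), in the direction of Ptgs2 and Ptgis. The median change of the 5 was 0.59 at day 7 and 0.23 at day 14.

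Among 5 tested genes listed as other terminal synthases, a list that includes carbonyl reductases, 0 rose and 2 fell on each day. Hpgds, the hematopoietic prostaglandin D synthase, was at 1.11 and 0.966 RPKM in day 7 control and at 3.01 and 3.58 RPKM in day 14 control libraries. In the 4 LAMZ libraries it was listed at 0, 0.107, 0.0478 and 0 RPKM, all below every control library. It fell by 0.95 at day 7 and by 2.07 at day 14 (limma, adjusted p = 0.0185 and 0.000345), having been tested through its control libraries alone. Cbr3, a carbonyl reductase, fell by 1.04 and 0.65 on the log2 scale (limma, adjusted p = 0.00189 and 0.00827), from 10.2 ± 1.22 to 4.44 ± 0.243 RPKM at day 7 and from 7.08 ± 0.118 to 4.17 ± 0.297 RPKM at day 14. The median change of the 5 was −0.28 and −0.35.

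Among other receptor genes, 2 of 5 tested were lower with LAMZ at day 7 and 5 of 5 at day 14, beside 12.8% and 23.0% of all tested genes, with medians of −0.50 and −1.03. Of these 5, 3 (Ptgir, Ptger1 and Ptger3) had been tested through control libraries alone. Ptgfr, the prostaglandin F2α receptor, was listed but did not pass the filter on low values, since only 1 LAMZ library reached 1 RPKM. It was higher with LAMZ, at means of 0.837 against 0.323 RPKM at day 7 and 1.02 against 0.525 RPKM at day 14. Its libraries did not overlap on either day. By limma voom its log2 change was 1.33 (adjusted p = 0.0572) at day 7 and 0.95 (adjusted p = 0.0385) at day 14. Ptgfr is named after its values were seen. Tbxa2r, the thromboxane receptor, was at 6.22 and 5.72 RPKM against 2.08 and 2.10 RPKM at day 7 and at 6.50 and 5.65 RPKM against 1.70 and 1.71 RPKM at day 14. It fell by 1.17 and 1.39 on the log2 scale (limma, adjusted p = 0.000980 and 0.000231). Ptgir, the receptor of prostacyclin, was at 0.716 and 1.04 RPKM against 0.141 and 0 RPKM at day 7 and at 2.18 and 1.99 RPKM against 0.103 and 0.184 RPKM at day 14. It fell by 0.81 and 1.43 (limma, adjusted p = 0.0451 and 0.00274), while the transcript of prostacyclin synthase rose. Ptger1 and Ptger3, the other prostaglandin E2 receptors (EP1 and EP3), passed at day 14 only, where they fell by 0.73 and 1.03 (limma, adjusted p = 0.0249 and 0.0227). Ptgfrn, a regulator of the prostaglandin F2α receptor and not itself a receptor, fell by 0.54 at day 14 (limma, adjusted p = 0.00811).

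Of 5 tested genes for transport and breakdown, 1 passed on each day by limma, with 3 on each day at an unadjusted p under 0.05. By voom on recovered reads 2 of 4 passed at day 7 and 3 of 4 at day 14. Ptgr1, a prostaglandin reductase, fell by 0.77 at day 7 and by 0.58 at day 14 (limma, adjusted p = 0.0157 and 0.0289), opposite to Hpgd at day 14. In the leukotriene branch, which uses the same arachidonic acid, 1 of 3 tested genes passed on each day. Alox5ap, the 5-lipoxygenase activating protein, was at 8.22 and 9.15 RPKM against 0.330 and 0.676 RPKM at day 7 and at 18.9 and 12.3 RPKM against 0.121 and 0.144 RPKM at day 14. It fell by 2.70 and 3.84 on the log2 scale (limma, adjusted p = 0.000254 and 2.39e-05). The median change of the transport and breakdown list was −0.42 at day 7 and −0.39 at day 14, and that of the leukotriene list was −0.55 and −1.02.

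**Figure D4:**
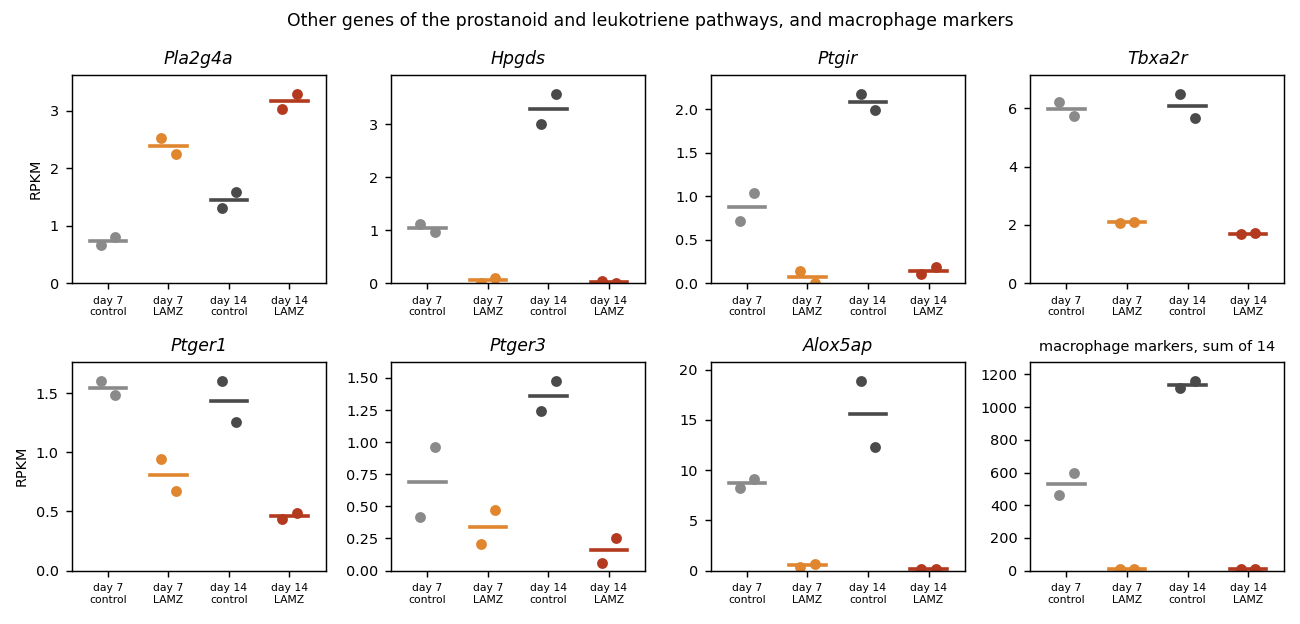
RPKM (vertical axis, linear, from 0) of 7 other pathway genes and summed RPKM of 14 macrophage markers in the 8 libraries, by group; points are single libraries and lines the means of 2. Pla2g4a is higher in LAMZ than in control libraries of the same day, whereas the other 6 genes have lower LAMZ means on both days and the macrophage sum is 7.36 to 9.43 RPKM with LAMZ against 461 to 1161 RPKM in control.

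Markers of another cell type moved with LAMZ beside the genes that fell. The 14 macrophage markers found of 15 listed had summed levels of 461 and 598 RPKM in day 7 control and of 1115 and 1161 RPKM in day 14 control libraries. In LAMZ libraries the sum was 9.43 and 7.65 RPKM at day 7 and 7.36 and 7.99 RPKM at day 14. By limma, 11 of 14 were lower with LAMZ at day 7 and 13 of 14 at day 14, beside 12.8% and 23.0% of all tested genes. In control, 10 of 14 were higher at day 14 than at day 7, beside 4.86% of all tested genes. All but Lyz2 had LAMZ means under 1 RPKM on both days and were tested through control libraries. These counts are therefore descriptions and support nothing. C1qa, C1qb, C1qc, Fcgr1 and Tyrobp, which are among the defining markers of macrophages, were listed at 0 in all 4 LAMZ libraries. At day 14 the markers moved in the direction of Ptgs1, Ptger4, Hpgds, Ptgir, Tbxa2r and Alox5ap, and of Cbr3, Ptgr1, Ptger1, Ptger3 and Ptgfrn. At day 7 the change of Ptger4 was −0.15 (limma, adjusted p = 0.682). In control, means of Ptgs1, Ptger4, Ptger3, Hpgds, Ptgir and Alox5ap were higher at day 14 than at day 7. Those of Cbr3, Ptgr1, Ptger1 and Ptgfrn were lower, and Tbxa2r was at 5.97 and 6.07 RPKM. The part of macrophages in these results was not tested. In bulk RNA, fewer cells of a type and less RNA per cell cannot be told apart. Lyz2, at 7.23 ± 1.36 RPKM at day 7 and 5.64 ± 0.496 RPKM at day 14, made up most of the sum that remained with LAMZ. The levels of Ptgs2, Ptgis, Hpgd and Pla2g4a were highest in day 14 LAMZ libraries, whose macrophage sums overlapped those of the day 7 LAMZ libraries.

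Of the 11 osteoblast markers, 7 were higher and 0 lower with LAMZ on each day, the direction of Ptgs2, Ptgis and Pla2g4a. These counts stand beside 12.8% of all tested genes called at day 7 and 23.0% at day 14. The summed level of these markers was 7207 and 8938 RPKM against 11024 and 10436 RPKM at day 7. At day 14 it was 11116 and 10699.7 RPKM against 16965 and 18915 RPKM. Col1a1 and Col1a2 made up most of this sum, and the mean of Col1a2 was not higher with LAMZ at day 7 (2767 against 2648 RPKM). Smooth muscle and pericyte markers, 6 in all, summed to 1204 and 1007 RPKM against 1272 and 1586 RPKM at day 7. At day 14 they summed to 906 and 1092 RPKM against 2011 and 1871 RPKM. By limma 4 of 5 tested were higher and 1 lower at day 14, beside 23.0% of all tested genes. Summed adipocyte markers (7 genes) were 13.0 to 76.4 RPKM in control and 4.90 to 7.70 RPKM in LAMZ libraries. The 8 endothelial markers summed to 14.7 to 22.9 RPKM and the 7 mast cell markers to 0.569 to 3.07 RPKM over all libraries. The part of these cell types in the results was not tested.

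The genes whose pattern was most like that of 4 members were taken as the 3 tested genes with the highest Pearson r on log2(RPKM + 1) over the 8 libraries, which share groups and depth, so r is a description only. For Ptgs2 they were Creb3l1 (r = 0.991), Pdgfa (0.989) and Lsp1 (0.984). Creb3l1, a transcription factor of the endoplasmic reticulum in bone-forming cells, was at 19.4 ± 0.0369 RPKM in day 7 control, 45.8 ± 3.68 in day 7 LAMZ, 24.7 ± 4.70 in day 14 control and 58.4 ± 1.89 RPKM in day 14 LAMZ cells. Pdgfa, which encodes a platelet-derived growth factor chain, was at 8.98 ± 0.526, 27.1 ± 1.54, 12.5 ± 0.733 and 39.6 ± 1.08 RPKM in the same order. For Ptgis they were Swap70 (0.991), Mrvi1 (0.987) and Bmp8a (0.987), and Bmp8a, a bone morphogenetic protein, was at 2.44 ± 0.797, 5.19 ± 0.794, 4.60 ± 0.261 and 14.0 ± 1.81 RPKM. The genes most like Ptgs1 were Cdk18 (0.994), Trnp1 (0.985) and Dok2 (0.985). Dok2, an adaptor protein of blood cells, was at 0.851 ± 0.218 and 1.50 ± 0.0343 RPKM in day 7 and day 14 control and at 0.121 ± 0.171 and 0.200 ± 0.116 RPKM in day 7 and day 14 LAMZ cells. For Ptgds they were Gm16104 (0.964), Coa3 (0.961) and Cd300ld4 (0.957), of which Gm16104 and Cd300ld4 had a mean of 0 RPKM in both LAMZ groups.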

How the data were processed

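Total RNA of 8 libraries was sequenced by the authors on an Ion Proton and analysed in CLC Genomics Workbench (version not given in the sources used here). The authors deposited 1 RPKM value per gene symbol and library, that is, reads scaled to gene length and mapped reads, without pooling and with no stated scaling between libraries. The submitters' processing notes name the build mm10. Date-like symbols that occur more than once (4 entries per file) were left out.

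Groups came from the sample labels. The value column of day 7 LAMZ library 1 is headed by day and replicate but, unlike the other 7, does not name LAMZ, and its sample was taken from the deposit's record. Genes with at least 1 RPKM in at least 2 libraries were tested, 12514 in all. The test was limma 3.58.1 in R 4.3.3 (lmFit, then eBayes with trend) on log2(RPKM + 1), with 4 group means, 4 residual degrees of freedom and no covariate. Benjamini-Hochberg adjusted p under 0.05 over all tested genes was called. The scripts were tested on simulated data.

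Mapped reads were recovered as the number at which low values (up to 6 reads) of single-exon genes are whole within 0.1, which held for 97.8% to 98.8% of 787 to 1384 values per library. All 8 values were whole for 75.8% of the 12167 tested genes with a length, so the reads of other genes are not used. For all members but Ptger2 the length was the exonic length of GENCODE M21 on GRCm38, which also gave positions. Limma voom on recovered reads (9572 genes with at least 10 reads in at least 2 libraries) was added after seeing the data, as an alternative. Windows around start sites came from RefSeq.

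The members and lists were chosen with earlier results of these data known. All 10 members are named. From the pathway lists, genes that passed in LAMZ against control on either day are named, at most 20 by size of change. For Ptgs1, Ptgs2, Ptgis and Ptgds, the 3 genes with the highest r are named. The symbols Plaat3, Prxl2b, Gpr44, Icer and Itgam of these lists were not found.

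Replicate numbers 1 and 2 occur in every group. Deviations of same-numbered libraries from their group means correlated between −0.0342 and 0.0776, so the numbers were not taken to pair the libraries. Replicates of a group differed by more than sampling noise (chi-square per gene 3.81 to 5.71). Alternatives were other pseudocounts (0.1 and 5), filters and scalings, a replicate block, the 2 compared groups alone, no trend, and leaving out each library.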

Additional observations from a re-analysis of the deposited data

How the results depend on the processing

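Of 222 values of called changes under alternatives, 201 kept their direction and their side of the threshold, 21 lost the call and 0 turned direction. Direction could not turn under many of them, since the log2 change itself stays the same. These are other filters, the replicate block, the 2 groups alone, no trend, and leaving out a library of a group not compared. The labels do not say what libraries of the same number share. With the replicate block, 3, 5, 1, 3 and 0 members passed (LAMZ at day 7, LAMZ at day 14, time in control, time in LAMZ and the difference between the days), the same members as without it, so the block changed no call. A minimum of 1 RPKM in all 8 libraries left 5 members to test and gave 1 at day 7, 2 at day 14 and 2 for time in control. These stand beside 14.9%, 25.4% and 6.83% of the 9387 genes tested then. Ptgs1 and Ptgs2 were among the members left out, and Hpgd gained a call for time in control (limma, adjusted p = 0.0307). For time in control, 2 passed with the same-sum rescaling and 2 with limma voom on recovered reads, beside 9.07% and 8.91% of the genes tested. When the control groups were fitted alone 0 passed, beside 0% of all tested genes. The cause was not tested. Each fit without 1 library leaves 1 library in a group, so its count of members is not given.

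Direction turned for values that had not passed. With the same-sum rescaling, Ptges3 went to −0.22 at day 7, −0.25 at day 14, 0.051 for time in control, 0.020 for time in LAMZ and −0.032 for the difference, and Ptgds to −0.055 for the difference. Ptges at day 14 went to 0.13 with median centring and 0.12 with quantile normalization. For time in control, Ptgds went to −0.066 with quantile normalization and −0.058 with voom, which also gave −0.040 for time in LAMZ. Leaving out 1 library moved Ptges3 from −0.11 to 0.27 and Ptger4 from −0.38 to 0.077 at day 7, and Ptges from −0.35 to 0.24 and Ptges3 from −0.066 to 0.27 at day 14. It moved Ptgds from −0.60 to 0.69 for time in control. For time in LAMZ it moved Ptgs1 from −0.0050 to 0.45, Ptges3 from −0.36 to 0.017 and Ptgds from −0.19 to 0.37. For the difference it moved Ptgs1 from −0.55 to 0.00052, Ptges from −0.11 to 0.49, Ptges3 from −0.17 to 0.21 and Ptgds from −0.60 to 0.69. The cause was not tested.

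Depth limits Ptgds (1 to 19 reads) and Ptger2 (0 to 10 reads) most. With no filter, Ptger2 also passed at day 14, which made 6 of 10, beside 7.41% of the 29944 genes tested then. When 1 library is left out, the lone library of its group is assumed to vary like the others.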

Other observations

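Genes that respond to cAMP, the messenger of the EP2 and EP4 receptors, were taken as a further list of 16 symbols. Of its 10 tested genes, 0 passed with LAMZ at day 7 by limma, with 0 at an unadjusted p under 0.05 and 0 by limma voom on recovered reads, beside 12.8% of all tested genes. At day 14, 1 rose and 1 fell by limma, with 4 at an unadjusted p under 0.05 and 3 by voom, beside 23.0% of all tested genes. The median log2 change was −0.02 at day 7 and 0.09 at day 14. Tnfsf11, which encodes the osteoclast differentiation factor RANKL, was at 0.833 and 1.29 RPKM in day 14 control and at 2.15 and 3.57 RPKM in day 14 LAMZ libraries. It rose by 0.89 (SE 0.24) on the log2 scale (limma, adjusted p = 0.0329). Tnfsf11 was tested through its 2 day 14 LAMZ libraries, since only 1 control library reached 1 RPKM. Its calls with LAMZ and over time in LAMZ cells are therefore descriptions and support nothing. Per1, a circadian clock gene, was at 5.99 and 6.52 RPKM in day 14 control and at 3.56 and 4.66 RPKM in day 14 LAMZ libraries and fell by 0.51 (SE 0.15) (limma, adjusted p = 0.0476). From day 7 to day 14, 3 of 10 rose in LAMZ cells by limma, with 5 at an unadjusted p under 0.05 and 2 by voom, beside 14.4% of all tested genes. In control cells 0 of 10 passed, with 5 at an unadjusted p under 0.05 and 0 by voom, beside 4.86% of all tested genes. The 3 in LAMZ cells were Tnfsf11 (1.53), Junb (1.04) and Sik1 (0.89) on the log2 scale (limma, adjusted p = 0.00684, 0.00618 and 0.0467), and Junb and Sik1 were named after their values were seen.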
